A study of Mus musculus with 6 samples.

Results

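Cyclins and cyclin-dependent kinases (CDKs) were followed through the first weeks of testis development, when germ cells pass from mitotic divisions into meiosis and then into spermatid differentiation. The members were taken by gene symbol, with earlier results of these data known: every gene named Ccn or Cdk with a family letter or number. This gave 43 of 17132 genes, 24 cyclins and 19 CDKs, with 250 cleavage and polyadenylation sites (pAs). The table has 73540 entries, in which a pA assigned to several genes is entered for each of them. Of the 250 pAs of members, 150 lay in the last exon, 51 in introns, 3 in upstream exons and 46 upstream of the start site on the opposite strand.

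A CDK is active only when bound by a cyclin, and the level of many cyclins changes through the division cycle. D-type cyclins with Cdk4 or Cdk6 phosphorylate the retinoblastoma protein and open the way into S phase, cyclin E with Cdk2 acts at the start of S phase, and cyclins A and B with Cdk1 drive entry into mitosis. Germ cells add their own partners: Ccna1 is a cyclin of spermatocytes, and Cdk2 is needed for chromosome pairing and telomere attachment in meiotic prophase. Another set (with Cdk7, Cdk8, Cdk9 and Cdk12 among its kinases) phosphorylates RNA polymerase II or its partners and acts in transcription rather than division.

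Whole testes of FVB mice aged 1w to 6w were used, with 1 library of 3'READS for each week. The method reads each transcript once, at its 3' end, so read numbers do not depend on transcript length. No mouse carried a treatment or an engineered allele, and the labels do not say how many animals went into a library. The 4–6 week samples (3 libraries) were compared with the 1–3 week samples (3 libraries), so weeks stand in for replicates and age adds to the spread of each group.

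The libraries held 3497870 to 5427850 reads in pAs assigned to 1 gene. A gene's level is given as scaled CPM: its last-exon reads in each 1000000 reads, after the trimmed mean of M-values (TMM) scaling that puts most genes at equal level across libraries. Under this scaling the log2 change of the median gene was −0.07 (4–6 week over 1–3 week samples). With the read totals the study lists as library sizes it was −1.38, so changes below are relative to most genes. In these whole testes fewer cells of a type and less RNA per cell cannot be told apart. The 4 elongating spermatid markers measured (Prm1, Prm2, Tnp1 and Tnp2) all passed the test as higher, with a summed level of 140140 to 487546 scaled CPM in 4–6 week samples and 49.8 to 517 in 1–3 week samples. All 6 Sertoli cell markers passed as lower, at 192 to 303 scaled CPM in 4–6 week and 639 to 1083 in 1–3 week samples. Of 3 spermatogonial markers tested 1 (Dmrt1) was lower and none higher, and the list of 5 summed to 25.0 to 31.1 and 53.1 to 120.3 scaled CPM in these groups. Most of that sum at 1w was Dmrt1, at 87.9 scaled CPM. Gfra1 of the same list went the other way, with 0, 0, 0, 4, 12 and 18 reads at 1w to 6w, too low for the test. Round spermatid markers had 3 of 5 tested higher, and meiotic prophase and Leydig cell markers 1 of 4 each, with none lower. The 5 markers of pachytene and later spermatocytes passed in neither direction but summed to 3591 to 5630 scaled CPM in 4–6 week and 7.78 to 1834 in 1–3 week samples. Peritubular and vascular markers had 3 of 3 tested lower, and no blood cell marker could be tested. The part of cell composition in the results below was not tested.

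Of the 36 members with enough reads for edgeR's quasi-likelihood test, 6 were higher and 7 lower in 4–6 week samples at an adjusted p under 0.05, and 18 had an unadjusted p under 0.05. Across all 11269 genes tested, 17.7% were called higher and 22.5% lower, so the members' share was close to that of the table. The median log2 change of the members was −0.11, against −0.07 for all genes. On the study's read totals the split became 3 higher and 22 lower, where 9.6% of all genes were higher and 54.9% lower. The count depended on single libraries: with 5w or with 6w left out only Cdk14 remained, with 2w left out Cdk14 and Ccnt2, and with 3w left out there were 10 higher and 12 lower. The whole table moved too, with 36.5% of genes higher and 34.1% lower without 3w, and 3.89% and 0.124% without 5w. The 7 members too low for the test were Ccnb3, Ccnc, Ccnd2, Ccnj, Ccnt1, Cdk15 and Cdk20, with at most 92 last-exon reads each. No exact permutation test of 3 against 3 libraries can go below p = 0.1.

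**Figure D1:**
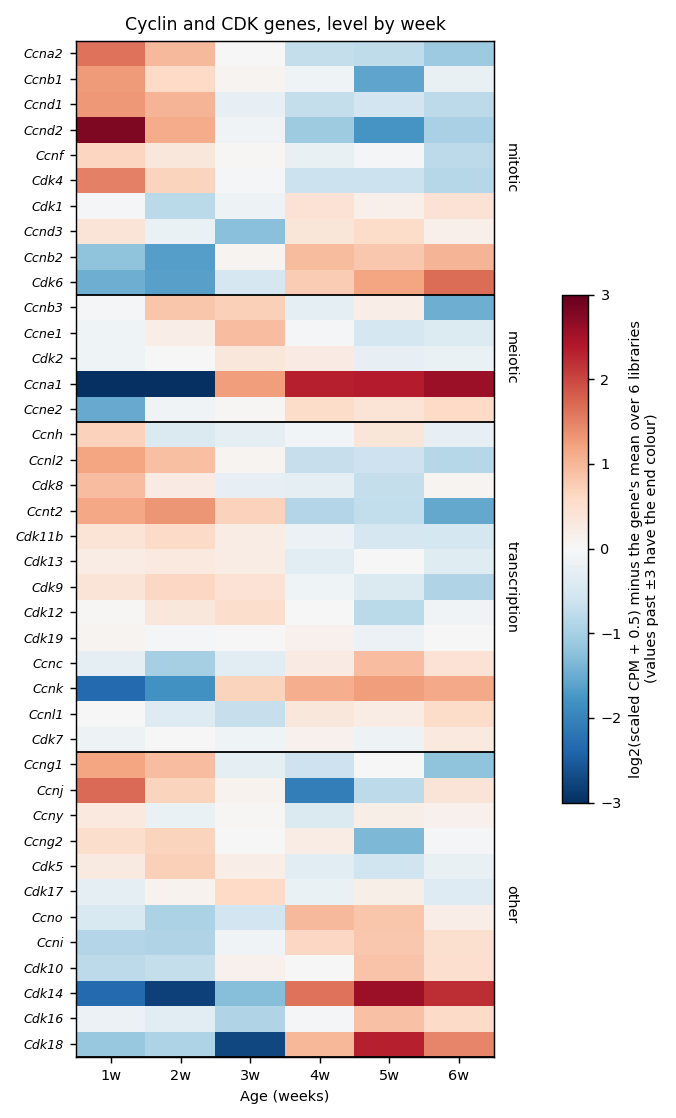
Level of each member in each week (columns, 1w to 6w), as log2(scaled CPM + 0.5) minus the gene's own mean over the 6 libraries; red is above and blue below that mean. Rows are grouped by role and ordered within a role by the week of highest level, and the 3 members with under 20 reads (Ccnt1, Cdk15 and Cdk20) are left out. Cdk14 and Ccna1 go from blue to red across the weeks, and Cdk4, Ccna2 and Ccnt2 the other way.

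The members listed as mitotic split into opposite directions. The list is not of mitosis alone: Ccnb1 and Cdk1 also drive the meiotic divisions, and Ccnb2 is, like Ccnb1, a cyclin of Cdk1. Ccna2, Cdk4 and Ccnd1 were lower in 4–6 week samples (22.5% of all genes were). Cdk6 and Ccnb2 were higher (17.7% of all genes were), and 4 of the 9 mitotic members tested passed in neither direction. Their median log2 change was −0.70, which is 0.63 below the median of all genes under either scaling.

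Cdk4, the catalytic partner of the D-type cyclins, had 209, 118, 71.3, 46.8, 46.8 and 40.6 scaled CPM at 1w to 6w. All 3 late libraries were below all 3 early ones, and the log2 change was −1.57 (standard error 0.44, edgeR adjusted p = 0.033). Cdk6, its close relative with the same cyclin partners, had 21.1, 18.8, 41.3, 100.01, 135 and 189.7 scaled CPM, and here every late library was above every early one. Its log2 change was 2.39 (standard error 0.45, edgeR adjusted p = 0.016). At 1w Cdk4 was the more abundant of these kinases and at 6w Cdk6 was.

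Ccnd1, a D-type cyclin that links growth signals to the cycle, was low throughout, with 7.95, 6.40, 2.40, 1.60, 1.79 and 1.49 scaled CPM. The groups did not overlap, with a log2 change of −1.77 (standard error 0.54, edgeR adjusted p = 0.041). Ccnd2, the D-type cyclin of differentiating spermatogonia, had 67, 18, 5, 1, 0 and 1 reads at 1w to 6w and was too low for the test. Ccnd3 had 48.9, 32.2, 15.3, 48.1, 54.3 and 41.4 scaled CPM, lowest at 3w, and its groups overlapped (log2 change 0.58, edgeR adjusted p = 0.304; −0.79 on the study's read totals).

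Ccna2, the cyclin A of somatic and mitotic cells, had 106, 67.7, 33.7, 20.5, 19.99 and 15.7 scaled CPM. Each week was at or below the one before, and the log2 change was −1.88 (standard error 0.46, edgeR adjusted p = 0.0242). Ccnb1 and Ccnb2 are the B-type cyclins that activate Cdk1 at entry into division. Ccnb2 had 52.2, 38.0, 129, 236, 212 and 246 scaled CPM, late libraries all above early ones, with a log2 change of 1.66 (standard error 0.51, edgeR adjusted p = 0.0421; 0.44 on the study's read totals, where it lost the call). Ccnb1 had 26.2, 16.3, 11.2, 9.62, 3.21 and 8.95 scaled CPM. Its late libraries were all below its early ones, but it did not pass the test (log2 change −1.30, edgeR adjusted p = 0.0799).

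Cdk1, a kinase of mitosis and also of the meiotic divisions, had 98.6, 57.9, 92.3, 137, 113 and 137 scaled CPM. Its log2 change of 0.64 did not pass (edgeR adjusted p = 0.14) and was −0.66 on the study's read totals. Ccnf, which encodes the F-box protein cyclin F and binds no CDK, had 21.0, 16.7, 13.6, 11.2, 12.9 and 7.46 scaled CPM (log2 change −0.70, edgeR adjusted p = 0.12). With 1 library left out, Cdk6 kept its call without 1w, 3w or 4w and Ccna2 without 1w or 3w. Ccnb2, Cdk4 and Ccnd1 kept theirs only without 3w, and the highest adjusted p of the 5 genes was 0.134, for Ccnd1 without 6w (edgeR).

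None of the 4 meiotic members tested passed the test, although Ccna1 had the widest range of all of them. At an unadjusted p under 0.05 there were 0 as well (lowest 0.079, for Ccne1), while DESeq2 called 1, Ccne2, with an adjusted p of 0.0483. On the study's read totals Ccne1 and Cdk2 were called lower (edgeR adjusted p = 0.00674 and 0.0189). Ccna1, the germ cell cyclin A, had 1, 0, 118, 170, 157 and 172 reads at 1w to 6w, or 0.169, 0, 25.8, 54.5, 56.1 and 64.1 scaled CPM. It was near 0 at 1w and 2w and present from 3w on. All late libraries were above the early ones, but the 3w library lay far from 1w and 2w, and the log2 change of 2.76 had a standard error of 1.66 (edgeR adjusted p = 0.204). Without 3w it was called higher. Ccna2 ran the other way across the same weeks, and by 4w Ccna1 stood above it: Ccna1 averaged 58.2 ± 5.17 and Ccna2 18.7 ± 2.67 scaled CPM in 4–6 week samples (SD, n = 3).

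Ccne1 and Ccne2 are the E-type cyclins that activate Cdk2. Ccne1 was highest at 3w, with 24.3, 30.6, 50.9, 25.3, 18.2 and 19.8 scaled CPM, and its groups overlapped (log2 change −0.74, edgeR adjusted p = 0.129). Ccne2 had 1.69, 5.33, 5.90, 8.65, 7.85 and 8.95 scaled CPM (log2 change 0.98, edgeR adjusted p = 0.137; −0.30 on the study's read totals). Cdk2 itself changed little in its last-exon reads, with 29.4, 31.8, 40.7, 37.8, 26.8 and 27.6 scaled CPM and overlapping groups (log2 change −0.14, edgeR adjusted p = 0.684). Ccnb3, a B-type cyclin of early meiosis, had 29 reads in all and was not tested.

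The median log2 change of the meiotic members was 0.42, or 0.49 above that of all genes, and on the study's read totals it was −0.85, which is 0.53 above. With Ccne1, Ccne2 and Cdk2 counted as mitotic, since all of them also act in dividing cells, Ccna1 alone was left with its 2.76 and the mitotic median was −0.42. The medians of so few genes are descriptions only.

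**Figure D2:**
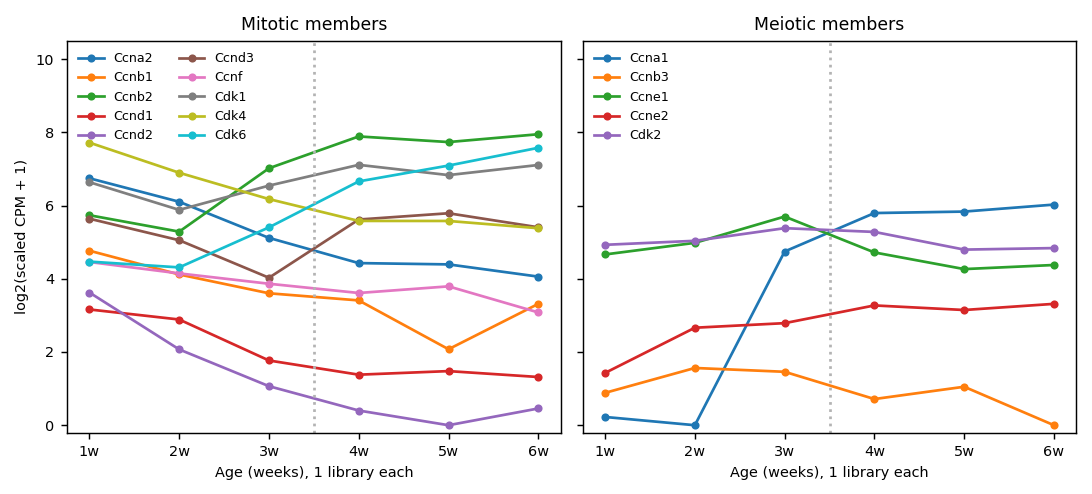
Level of each mitotic member (left) and meiotic member (right) by week, as log2(scaled CPM + 1), 1 library a week. The dotted line parts 1–3 week from 4–6 week samples. Among mitotic members Cdk4 and Ccna2 fall away while Ccnb2 and Cdk6 climb, and among meiotic members Ccna1 appears at 3w.

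Windows of 30 bases that end at the pA show where the transcripts of these genes were cut. A signal that starts upstream of the window is not seen. They are given 5' to 3' on the transcript strand in mm9, with the polyadenylation signal in capitals where 1 was found. The signals were looked for on the transcript strand in a fixed order, AATAAA before ATTAAA, followed by AGTAAA, followed by TATAAA, followed by CATAAA, followed by GATAAA, followed by AATATA, followed by AATACA, followed by AATAGA, followed by ACTAAA, followed by AAAAAG, followed by AATGAA, and the motif marked is the earliest of that order in the window. Ccna1 and Ccna2, the germ cell and the somatic cyclin A, both carried AATAAA.
Ccna1, chr3:54849391-54849420, minus strand, 188 nt after the stop codon: aaagAATAAAcaacttgctgtttggctgtg
Ccna2 Prx-pA, chr3:36464900-36464929, minus strand, 256 nt after the stop codon: atattgagAATAAActgatttggaaatctt
Ccnb2 Prx-pA, chr9:70255597-70255626, minus strand, 129 nt after the stop codon: atgaaaAATAAAgctattgattttcttata
Ccnb2 Dis-pA, chr9:70255495-70255524, minus strand, 231 nt after the stop codon: gaaggaaAATAAAgctattgatctacttaa
Across all members 46 of the 146 last-exon pAs with a window held AATAAA and 15 more ATTAAA, against 35.6% and 13.0% of all last-exon pAs in the table.

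Of the 12 transcription members tested, 4 were lower and none higher, against 22.5% and 17.7% of all genes. The 4 were Ccnt2, Ccnl2, Cdk9 and Cdk11b. Ccnt2, a cyclin T that with Cdk9 forms the elongation factor P-TEFb, had 17.2, 19.4, 12.5, 3.85, 4.28 and 2.24 scaled CPM. The late libraries were all below the early ones, with a log2 change of −2.23 (standard error 0.37, edgeR adjusted p = 0.0117). Cdk9 had 86.7, 104, 90.7, 61.2, 49.6 and 35.4 scaled CPM, also without overlap (log2 change −0.94, standard error 0.30, edgeR adjusted p = 0.0479). So both partners of P-TEFb were called lower, while Ccnt1, the other cyclin T, had 4 last-exon reads (19 reads with its intronic ones).

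Ccnl2, a cyclin of nuclear speckles that takes part in splicing, had 259, 216, 121, 70.5, 73.5 and 63.0 scaled CPM, with a log2 change of −1.52 (standard error 0.37, edgeR adjusted p = 0.0244). Cdk11b, the kinase that cyclin L binds, had 22.1, 24.9, 19.5, 14.4, 11.4 and 11.2 scaled CPM, with a log2 change of −0.84 (standard error 0.26, edgeR adjusted p = 0.0433). For both genes the groups did not overlap. Ccnl1, the other cyclin L, did not pass and lay on the other side of 0 (log2 change 0.74, edgeR adjusted p = 0.0802; −0.62 on the study's read totals).

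Ccnk, the cyclin partner of Cdk12 and Cdk13, was the most abundant member, with 11397 last-exon reads in all. Its level was 76.8, 109, 622, 828, 925 and 859.6 scaled CPM at 1w to 6w. The large step lay between 2w and 3w, so that 3w resembled the late libraries, and the log2 change of 1.69 did not pass (standard error 0.84, edgeR adjusted p = 0.137). Its kinases Cdk12 and Cdk13 were lower in every late library than in any early one but did not pass either, with log2 changes of −0.62 and −0.50 (edgeR adjusted p = 0.186 and 0.14). Nearly all Ccnk transcripts ended at 1 pA, 657 nt after the stop codon.
Ccnk, chr12:109441539-109441568, plus strand: ttgcccgAATAAAatcagttctgaaactac
Cdk7, the kinase of the general factor TFIIH, was steady at 121 to 164 scaled CPM in the 6 libraries. Ccnt2 kept its call without 1w, 2w, 3w or 4w, with adjusted p of 0.0556 without 5w and 0.059 without 6w. Ccnl2, Cdk9 and Cdk11b kept theirs only without 3w, with adjusted p up to 0.101, 0.152 and 0.16 with another library left out (edgeR).

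Among the remaining members 11 were tested, and the 4 that passed were all higher: Cdk14, Cdk18, Ccno and Ccni. Of all genes, 17.7% were higher and 22.5% lower. Cdk14, a membrane-linked kinase that pairs with Ccny in Wnt signalling, had the steepest change of the 36 members tested, with 20.8, 14.9, 43.3, 330.2, 631 and 494 scaled CPM. It averaged 485 ± 151 scaled CPM in 4–6 week samples and 26.3 ± 15.0 in 1–3 week samples (SD, n = 3 each), and its log2 change was 4.20 (standard error 0.57, edgeR adjusted p = 0.00775). It was called with each library left out in turn and on the study's read totals (log2 change 2.92). Its cyclin partner Ccny did not move with it, at 23.1 to 35.3 scaled CPM in 4–6 week samples and 27.4 to 38.5 in 1–3 week samples (log2 change −0.08, edgeR adjusted p = 0.833).

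Cdk18, a kinase of the same PCTAIRE branch as Cdk16 and Cdk17, had 6, 7, 0, 19, 45 and 23 reads at 1w to 6w. Few as these are, no late library reached as low as an early one, with a log2 change of 3.65 (standard error 0.81, edgeR adjusted p = 0.0206). Cdk16, whose loss makes male mice infertile, had 12.3, 11.02, 7.21, 13.8, 26.1 and 21.2 scaled CPM and did not pass (log2 change 0.99, edgeR adjusted p = 0.0636; −0.40 on the study's read totals). Cdk17 overlapped between groups, at 11.6 to 17.1 scaled CPM in 4–6 week samples and 12.3 to 23.2 in 1–3 week samples.

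Ccno, a cyclin needed to make the many centrioles of multiciliated cells, had 13, 8, 9, 21, 17 and 10 reads at 1w to 6w. Its log2 change was 1.55 (standard error 0.39, edgeR adjusted p = 0.0255), and 0.29 with no call on the study's read totals. Ccni, a cyclin without a clear role in the division cycle, had 9.97, 9.77, 17.3, 28.8, 32.8 and 26.1 scaled CPM. It passed as higher with a log2 change of 1.25 (standard error 0.32, edgeR adjusted p = 0.0281), but on the study's read totals it was at −0.02 with an adjusted p of 0.97. Cdk18 kept its call without 1w, 3w or 4w, and Ccno and Ccni only without 3w, with adjusted p up to 0.0857, 0.0923 and 0.102 with another library left out (edgeR). Of the members not named so far, Ccng1 and Cdk10 had the largest changes that did not pass, with log2 changes of −1.45 and 1.01 (edgeR adjusted p = 0.0809 and 0.111), and Cdk10 changed sign on the study's read totals.

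**Figure D3:**
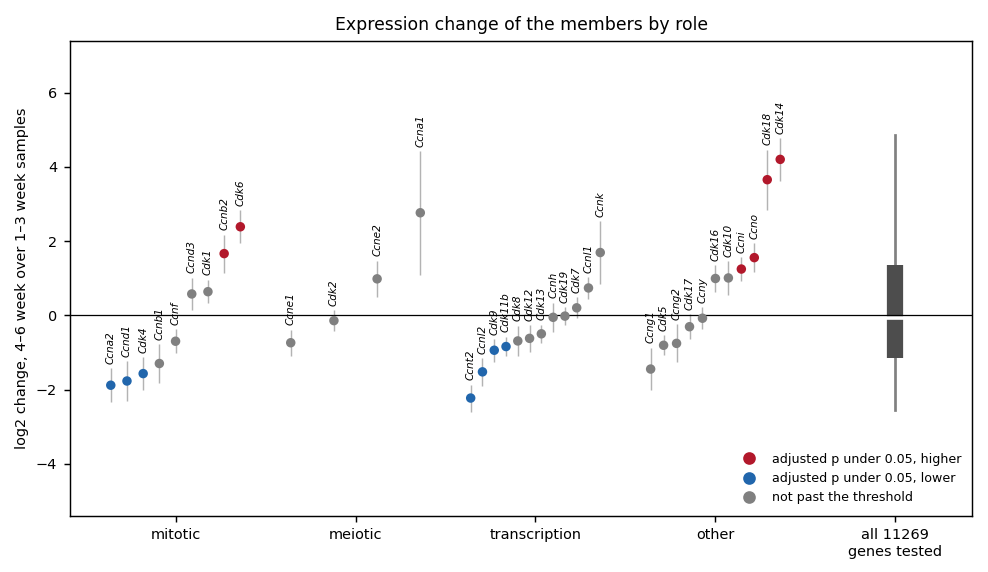
Log2 change in expression of the 36 members tested, 4–6 week over 1–3 week samples, by role, with the standard error as a bar. The column at the right gives all 11269 genes tested: the white line is the median of −0.07, the thick bar spans −1.15 to 1.35 (the middle 50%) and the thin line −2.54 to 4.86 (the middle 90%). Called members lie on both sides of 0 among mitotic members, below it among transcription members and above it among the others.

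Set week against week, most steps of the members lay around 3w and 4w. With 1 library a week these are values of those libraries, and a step counts where the scaled level differs by at least 2-fold and 1 of the 2 weeks has at least 20 reads. Of 32 members with enough reads, 1 was higher (Ccne2) and 1 lower (Ccnh) at 2w than at 1w, against 6.04% and 5.2% of all genes. At 3w, 5 of 33 were higher than at 2w (Ccna1, Ccnb2, Ccnk, Cdk6 and Cdk14) and 4 lower (Ccna2, Ccnd1, Ccnd3 and Ccng1), against 22.8% and 15.3% of all genes. At 4w, 6 of 31 were higher than at 3w (Ccna1, Ccnd3, Ccnl1, Ccno, Cdk6 and Cdk14) and 2 lower (Ccne1 and Ccnt2), against 18.1% and 9.09%. After that the table was quiet. Cdk18 was higher and Ccnb1 lower at 5w than at 4w (30 members; 3.98% and 2.51% of all genes), and Ccnb1 was higher at 6w than at 5w with no member lower (29 members; 2.52% and 1.62%). The shares of members were near those of all genes at each step, and Ccna1, Cdk6 and Cdk14 stepped up at both 3w and 4w.

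For 3'UTR-APA, the proximal and the distal pA of a gene (Prx-pA and Dis-pA) are the pair of last-exon pAs with most reads, and the Dis-pA share is that of Dis-pA reads in their sum. A lower share means that more transcripts of this pair have the shorter 3'UTR, and pAs outside the pair do not count. Of 17 members with at least 20 such reads in every library, 5 had a lower ratio of Dis-pA to Prx-pA reads in 4–6 week samples and none a higher one. Across 4270 genes, 34.4% were lower and 1.31% higher, so the members' share was again near that of the table. At an unadjusted p under 0.05 there were 6 members, and the median log2 change of the ratio was −1.15 for members and −1.11 for all genes. limma called 7 lower and none higher, where it called 1615 of all 4270 genes lower and 90 higher.

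Cdk14 had the largest shift. Its Dis-pA share was 62.8%, 35.7%, 23.7%, 2.05%, 0.963% and 1.43% at 1w to 6w, and all late libraries were below all early ones. Dis-pA reads made up 57 of 4117 in 4–6 week samples (1.38%, 95% Wilson interval 1.07 to 1.79) and 153 of 403 in 1–3 week samples (38.0%, 33.4 to 42.8). The log2 change of the ratio was −5.50 (standard error 0.66, edgeR adjusted p = 0.000216). The pAs lie 3092 nt apart. Reads at the Dis-pA were 76, 30, 47, 21, 17 and 19, while those at the Prx-pA were 45, 54, 151, 1005, 1749 and 1306, so the rise of the gene was a rise of its short isoform.
Cdk14 Prx-pA, chr5:4806479-4806508, minus strand: tacgtgacgattaagctttgcttactgcta
Cdk14 Dis-pA, chr5:4803387-4803416, minus strand: tggAATAAAatatagccaaatctgcatata
The Prx-pA that took over held no searched signal, and the Dis-pA held AATAAA.

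Cdk16 had Dis-pA shares of 34.2%, 19.4%, 27.3%, 2.33%, 2.74% and 3.51%, without overlap between groups. Its log2 change was −3.53 (standard error 0.66, edgeR adjusted p = 0.00241), on 5 Dis-pA reads of 173 in 4–6 week samples (2.89%, 1.24 to 6.59) and 46 of 168 in 1–3 week samples (27.4%, 21.2 to 34.6). Its Prx-pA and Dis-pA lie 240 and 1234 nt after the stop codon. The relative Cdk17 went the same way without passing, at 83.1%, 85.1%, 64.4%, 62.2%, 54.3% and 35.7% (edgeR adjusted p = 0.0623). Cdk18, too low for the test, had a Dis-pA share of 21.8% in 4–6 week samples (19 of 87 reads) and 92.3% in 1–3 week samples (12 of 13 reads). The Prx-pAs of these relatives lie 147 to 508 nt after the stop codon.
Cdk16 Prx-pA, chrX:20275983-20276012, plus strand: tgctgggtgctaacaaagctctcaccacta
Cdk16 Dis-pA, chrX:20276977-20277006, plus strand: gaaatATTAAAaaaaagtctaaagttcaaa
Cdk18 Prx-pA, chr1:134011366-134011395, minus strand: ctggagggccactcggcagccctgttggta
Cdk18 Dis-pA, chr1:134010231-134010260, minus strand: agAATATAtttaattcatgttgtacaaaaa
As in Cdk14, these proximal windows of Cdk16 and Cdk18 held no searched signal and the distal ones did. Cdk17 differed, with ATTAAA at its Prx-pA and TATAAA at its Dis-pA.

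Both cyclin L genes passed. Ccnl2 had Dis-pA shares of 95.2%, 96.0%, 95.1%, 83.1%, 74.1% and 67.7%, with 441 of 583 reads in 4–6 week samples (75.6%, 72.0 to 79.0) and 3147 of 3296 in 1–3 week samples (95.5%, 94.7 to 96.1). The log2 change was −2.77 (standard error 0.44, edgeR adjusted p = 0.000917). Prx-pA reads, not scaled for library size, were 74, 48, 27, 37, 51 and 54 at 1w to 6w. Dis-pA reads, also unscaled, were 1458, 1164, 525, 182, 146 and 113, so the loss of Ccnl2 reads was at the Dis-pA. Ccnl1 had no Prx-pA read at 1w and 2w and 2 at 3w, and its Dis-pA share was 104 of 131 reads in 4–6 week samples (79.4%, 71.7 to 85.4) and 171 of 173 in 1–3 week samples (98.8%, 95.9 to 99.7). It passed with an edgeR adjusted p of 0.0114, and the fitted size is not given because it rests on those 2 early reads. Over the Ccnl1 last-exon pAs placed after a stop codon, mean 3'UTR size was 440, 447, 386 and 942 nt at 1w, 2w, 4w and 6w. It was thus longer at 6w than at 1w, while 3w and 5w had too few reads for a mean. Within the windows, Ccnl2 had AATAAA at its Prx-pA and Ccnl1 at its Dis-pA. The other windows, of the Ccnl2 Dis-pA and the Ccnl1 Prx-pA, held no searched signal but begin with taaa. A signal cut off at the window's edge would be missed there, so whether the genes differ in this is not settled.
Ccnl2 Prx-pA, chr4:155198242-155198271, plus strand: AATAAAcatgtttaatacaagtaaaagcta
Ccnl2 Dis-pA, chr4:155198437-155198466, plus strand: taaacaattctcaggacacttgttatgtaa
Ccnl1 Prx-pA, chr3:65750306-65750335, minus strand: taaaatgccctagcagtatctaattgaaaa
Ccnl1 Dis-pA, chr3:65750073-65750102, minus strand: gaAATAAAatacaaatcttgtttttataaa

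Cdk6 shifted less, between pAs only 82 nt apart. Its Dis-pA share was 92.3%, 92.0%, 84.7%, 72.6%, 70.6% and 69.6%, with a log2 change of −1.82 (standard error 0.46, edgeR adjusted p = 0.011). The mean 3'UTR size of its transcripts was 266, 259 and 255 nt in 4–6 week samples and 331, 348 and 290 nt in 1–3 week samples. Neither window held a searched signal, whereas a more distal pA of few reads, 666 nt after the stop codon, held AATAAA.
Cdk6 Prx-pA, chr5:3520958-3520987, plus strand: gagatcaatgcaagggtgattgcagcttta
Cdk6 Dis-pA, chr5:3521040-3521069, plus strand: acttccagaagaagagaagctgctgaccaa
Cdk6 more distal pA, chr5:3521428-3521457, plus strand: aaacAATAAAggtttagatgccacaaaaaa
Over the 5 called members, 4 Prx-pAs and 2 Dis-pAs held no searched signal within their windows, against 30.5% of all last-exon pAs. The Ccnl1 Prx-pA and the Ccnl2 Dis-pA, where a signal may be cut off, are among these.

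Members without a call differed in size. Ccnb2 had shares of 43.3%, 44.0% and 42.0% in 4–6 week and 50.5%, 57.0% and 50.9% in 1–3 week samples, which did not overlap (log2 change −0.56, edgeR adjusted p = 0.255). Cdk4 used its Dis-pA almost alone, at 98.2% in 4–6 week and 99.1% in 1–3 week samples. Its log2 change of −1.15 did not pass (edgeR adjusted p = 0.2), and limma called it lower (adjusted p = 0.0249). Cdk7, Cdk19 and Ccny had log2 changes of −0.19, −0.00369 and 0.28. Ccni had 52.6%, 69.1%, 47.2%, 38.0%, 39.2% and 19.0% at 1w to 6w (edgeR adjusted p = 0.117). Its mean 3'UTR size was 577, 596 and 438 nt in 4–6 week and 851, 926 and 833 nt in 1–3 week samples, and a more proximal pA outside the pair, 242 nt after the stop codon, had 0, 0, 1, 29, 24 and 34 reads. Ccne2 was too low for the test. Its Prx-pA, 62 nt after the stop codon, had 1, 0, 2, 4, 10 and 19 reads, and its Dis-pA, 778 nt further on, had 5, 9, 8, 10, 7 and 2. The Dis-pA share of Ccne2 was 36.5% in 4–6 week and 88.0% in 1–3 week samples.
Ccni more proximal pA, chr5:93611761-93611790, minus strand: tatttaaaAGTAAAgcaaaagttctttgta
Ccne2 Prx-pA, chr4:11130278-11130307, plus strand: tagtttcaTATAAAtgagttttacagaaaa
With 1 library left out 4 to 7 members were called lower: Cdk14, Cdk16 and Ccnl2 each time, Ccnl1 except without 5w (adjusted p = 0.0547) and Cdk6 except without 2w (adjusted p = 0.0531, both from edgeR). Of all 4270 genes, 24% to 41.7% were lower in these fits. With the most distal pA set against all others Cdk6 lost its call (log2 change −0.56).

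**Figure D4:**
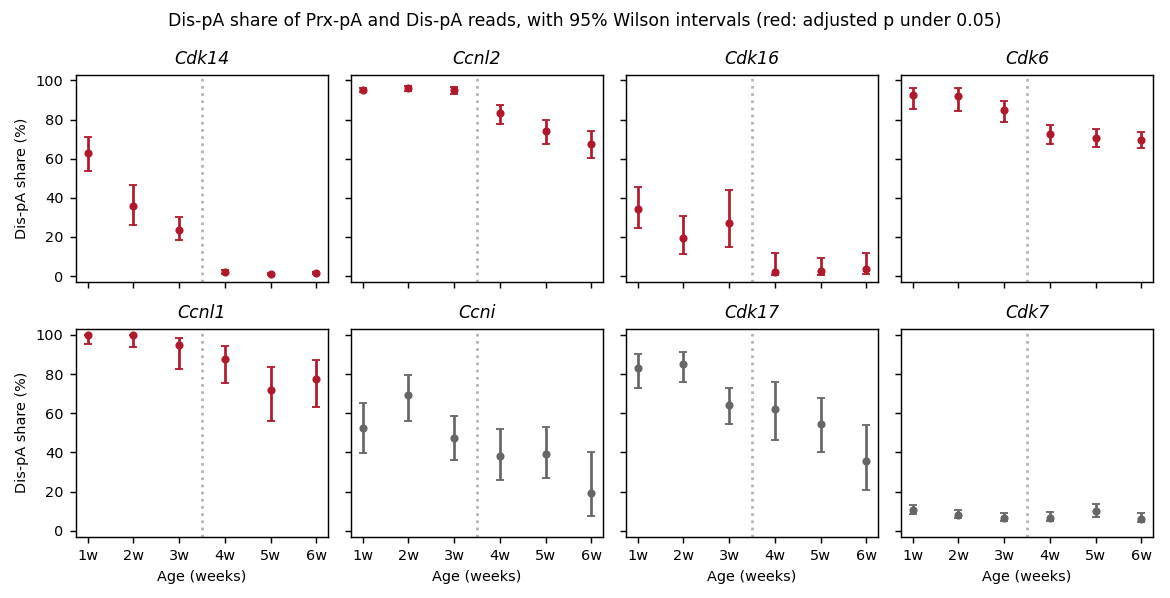
Dis-pA share of Prx-pA and Dis-pA reads by week for 8 members, with 95% Wilson intervals that cover counting error only. Red marks the 5 members called lower in 4–6 week samples; Ccni and Cdk17 have lower late points without a call, and Cdk7 stays at 6.19% to 10.4%.

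Some transcripts end upstream of the last exon, at pAs in introns or upstream exons (CDS-pAs), which cuts the coding sequence short. Of 12 members with at least 20 reads in every library, the ratio of CDS-pA to last-exon reads was higher in 4–6 week samples in 3 (Cdk2, Cdk8 and Cdk17) and lower in none. Across 2437 genes, 20.8% were higher and 4.19% lower. At an unadjusted p under 0.05 there were 4 members, and limma called 3 higher and none lower. Of all 2437 genes, limma called 637 higher and 144 lower.

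Cdk2, the kinase of S phase and of meiotic chromosome pairing, changed the end of its transcripts although its last-exon level hardly moved. Its CDS-pA reads all came from 1 pA in intron 5 of 7. They were 21, 20, 96, 171, 200 and 144 at 1w to 6w, while last-exon reads were 174, 179, 186, 118, 75 and 74. The CDS-pA share was 10.8%, 10.1%, 34.0%, 59.2%, 72.7% and 66.1%, with no overlap between groups. In all it was 515 of 782 reads in 4–6 week samples (65.9%, 62.5 to 69.1) and 137 of 676 in 1–3 week samples (20.3%, 17.4 to 23.5). The log2 change of the ratio was 3.32 (standard error 0.72, edgeR adjusted p = 0.00525), and it was called with each library left out in turn. With the intronic reads added to the last-exon ones, the log2 change in expression of Cdk2 was 0.99 (edgeR adjusted p = 0.0536).
Cdk2 intron 5, chr10:128138191-128138220, minus strand: aagttatctAATATAtatatatatatctta
Cdk2 last exon, chr10:128135000-128135029, minus strand, 1162 nt after the stop codon: ttgtaaattcATTAAAagaaaatattctca
Neither Cdk2 pA held AATAAA: the intronic one had the variant AATATA and the last-exon one ATTAAA.

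Cdk8, the kinase of the Mediator complex, had CDS-pA shares of 3.35%, 12.9%, 31.0%, 70.8%, 37.5% and 48.2%. The log2 change was 2.97 (standard error 0.89, edgeR adjusted p = 0.0259), on 147 of 253 reads in 4–6 week samples (58.1%) and 47 of 379 in 1–3 week samples (12.4%). Most of these reads, 155, were at a pA in intron 2 of 12 that lies inside an annotated miRNA gene (AC113316.1, 147072579 to 147072660 on the plus strand of chromosome 5 in mm9). Whether they come from Cdk8 transcripts or from that gene was not tested. Cdk17 passed on few reads, with 9 of 129 CDS-pA reads in 4–6 week samples (6.98%, 3.71 to 12.7) and 1 of 272 in 1–3 week samples (0.368%, 0.0649 to 2.05; edgeR adjusted p = 0.0246). Cdk14 had 151 CDS-pA reads in 4–6 week samples and 3 in 1–3 week samples, but they stayed a small share of its many reads (3.53% and 0.735%, edgeR adjusted p = 0.087). Cdk8 kept its call only without 3w or 5w and Cdk17 only without 3w or 4w, with adjusted p up to 0.0938 and 0.112 otherwise (edgeR), and without 3w Cdk14 was also called.

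Upstream antisense RNA (uaRNA) is made from the start site of a gene in the opposite direction and usually ends nearby. uaRNA reads were found for 19 members, in all 1675 raw reads in 4–6 week samples and 514 in 1–3 week samples, not scaled for library size. These are all reads that the table assigns to upstream antisense pAs, and 1802 of the 2189 were within 2 kb of the start, including all those of Ccng2 and Ccny. Only 5 members had enough reads for edgeR, and 2 were called higher and none lower (2 at an unadjusted p under 0.05). Across 1063 genes, 39.6% were higher and 2.16% lower. The median log2 change of uaRNA was 1.96 for the 5 members tested and 2.52 for these genes, so a rise was not particular to the members.

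Ccng2, a cyclin linked to cell cycle arrest, had 1, 3, 9, 25, 36 and 19 uaRNA reads at 1w to 6w, all at 1 pA, 438 nt upstream of the start. All late libraries were above the early ones, with a log2 change of 3.29 (standard error 0.76, edgeR adjusted p = 0.0218). The gene itself did not follow, at 4.17, 1.07 and 3.36 scaled CPM in 4–6 week and 5.24, 5.86 and 3.498 in 1–3 week samples (edgeR adjusted p = 0.25). Ccnl1 had 31, 20, 61, 81, 74 and 89 uaRNA reads, with a log2 change of 1.84 (standard error 0.52, edgeR adjusted p = 0.0334; 0.71 with no call on the study's read totals). Its main antisense pA lies 3782 nt upstream of the annotated start, and 21 of its 356 antisense reads (0, 0, 2, 4, 9 and 6 at 1w to 6w) were within the 2 kb by which the study defines uaRNA. The call for Ccnl1 thus rests mostly on antisense reads outside that definition.
Ccng2 antisense pA, chr5:93695845-93695874, minus strand: ttgcAATAAAcagtcaagctcttaacattc
Ccnl1 antisense pA, chr3:65765924-65765953, plus strand: ccctcaccctcAATAAAcaccttcctttaa

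Cdk19, the paralog of Cdk8 in Mediator, had by far the most antisense reads, with 1, 2, 163, 278, 323 and 210. They were near 0 at 1w and 2w, and with 3w so far from these the log2 change of 2.88 did not pass (edgeR adjusted p = 0.185). Of them, 688 were at a pA 805 nt upstream of the start, which lies 5 nt from the annotated end of an antisense gene, 4930520K10Rik. The level of Cdk19 itself was flat, at 19.99 to 24.7 scaled CPM in 4–6 week and 21.7 to 24.01 in 1–3 week samples. Ccny had 15, 13, 105, 123, 96 and 113 uaRNA reads (edgeR adjusted p = 0.116), again with the step at 3w and a flat gene. These calls rest on single libraries: without 2w, 4w, 5w or 6w none of the 5 members was called, without 1w only Ccng2 was, and without 3w all 5 were. Of all 1063 genes, edgeR called 31.6% higher without 1w, 17.4% without 2w, 85.3% without 3w, 24.4% without 4w and 9.69% without 6w. Without 5w it called none of them.
Cdk19 antisense pA, chr10:40068309-40068338, minus strand: acaATTAAAgcgcttggaagattgcaaaaa

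**Figure D5:**
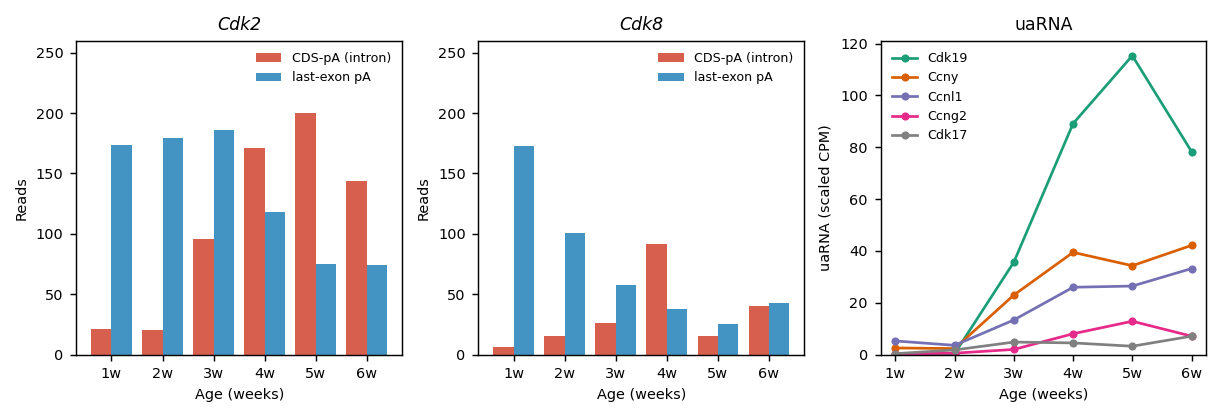
Left and middle, reads at CDS-pAs and at last-exon pAs of Cdk2 and Cdk8 by week. Right, uaRNA of the 5 members tested, in scaled CPM by week. In Cdk2 the CDS-pA bar stays below the last-exon bar through 3w and stands above it from 4w on, and the uaRNA of Cdk19, Ccny and Ccnl1 steps up at 3w.

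The genes that act on cyclins and CDKs were read from a list of 78 (75 in the table, 62 tested), of which 9 were higher and 15 lower, near the 17.7% and 22.5% of all genes. Their calls with 1 library left out are not given here. Without 5w and without 6w, 0.124% and 0.133% of all genes were called lower. Of 6 CDK inhibitors tested 2 were higher and 1 lower. Cdkn3, a phosphatase that acts on the active CDK, had 12.3, 18.3, 135, 389, 392 and 583 scaled CPM, with a log2 change of 3.04 (edgeR adjusted p = 0.0476). Of 7 activators and adaptors 3 were lower and none higher. Among them Cdc25b, the phosphatase that removes the inhibitory phosphate from Cdk1, had 66.8, 72.5, 95.3, 25.6, 11.1 and 5.96 scaled CPM (log2 change −2.45, edgeR adjusted p = 0.0215). Cables1, an adaptor that binds CDKs, had a log2 change of −2.49 (edgeR adjusted p = 0.043). Of the kinases that place that phosphate, 1 of 2 tested was lower: Wee1, with a log2 change of −1.49 (edgeR adjusted p = 0.0291). The phosphatase Cdc25b and its opponent Wee1 were thus both lower in 4–6 week samples. The other inhibitory kinase tested, Pkmyt1, and the phosphatase Cdc25a lay above 0 and did not pass. Their log2 changes were 0.90 and 0.21 (edgeR adjusted p = 0.288 and 0.579).

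Of 20 genes that act in the destruction of cyclins, 3 were higher and 7 lower, against 17.7% and 22.5% of all genes. Skp2, the F-box protein that marks p27 for destruction, had 10.8, 6.22, 3.94, 40.1, 83.9 and 105.5 scaled CPM (log2 change 3.44, edgeR adjusted p = 0.0111). Of the subunits of the anaphase-promoting complex, Anapc10 was called higher and Anapc1, Anapc2, Anapc4, Anapc5, Anapc7 and Cdc23 lower. The log2 changes were 2.29 for Anapc10, −1.93 for Anapc1 and −2.13 for Anapc2 (edgeR adjusted p = 0.0105, 0.024 and 0.0113). Fbxo5 (Emi1), which holds that complex back, had a log2 change of −2.57 (edgeR adjusted p = 0.028). In the retinoblastoma and E2f group 2 of 10 were higher and 3 lower, and E2f3, a driver of S phase genes, had the largest of these changes at −2.77 (edgeR adjusted p = 0.0198). The higher ones, Rbl2 and E2f4, were at −0.15 and −0.25 on the study's read totals. Of 8 mitotic kinases tested 1 was higher, and of 9 cyclin-like and CDK-like genes also 1. That gene, the CDK-like kinase Cdkl3, had 0, 0.711, 1.53, 15.1, 28.2 and 32.4 scaled CPM (log2 change 5.09, edgeR adjusted p = 0.0131).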

How the data were processed

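Whole-testis RNA of FVB mice at 1w to 6w, 1 library a week, was read by 3'READS. The authors mapped reads to mm9 with Bowtie2 (version not given in the sources used here), kept reads with untemplated T at the 5' end and clustered pAs. The deposited values are raw counts of these reads per pA, library and gene, with no normalization; 3497870 to 5427850 counts per library lay in pAs of 1 gene. Of the 73540 entries, 1053 were of pAs that belong to several genes, counted once for each gene, and were not used.

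Members, roles and lists were chosen with earlier results of these data known. Named were all mitotic and meiotic members, every other member past a threshold, the highest member of a family, and of the pathway list the called genes, at most 10 with values. A few others (Ccnl1, Cdk7, Cdk10, Cdk12, Cdk13, Ccng1, Ccny, Cdk16, Cdk17, Cdk19, Wee1, Pkmyt1, Cdc25a, Rbl2, E2f4, Anapc4, Anapc5, Anapc7, Cdc23) were named after their values were seen.

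Last-exon counts were tested with edgeR 4.0.16 (TMM, filterByExpr, quasi-likelihood, Benjamini-Hochberg over all genes, threshold 0.05). Isoform ratios had a term for each library, at least 20 reads in every library and, for CDS-pAs, at least 5 CDS-pA reads in all; uaRNA was fitted in 1 model with the genes. Standard errors are the log2 change over the square root of F. Alternatives used limma 3.58.1 and DESeq2 1.42.0. Nothing says which animals a library pooled, so p-values measure the spread between libraries. Reads carry no molecular identifiers, so Wilson intervals cover counting error only. Scripts were tested on simulated data. Stop codons, introns and 30-base windows came from GENCODE vM1 and the mm9 sequence, whose chromosome lengths fit the pA positions; 143 of 150 last-exon pAs were placed after a stop codon, and those of Cdk14 were not. No sequence of Ccny is shown.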

Additional observations from a re-analysis of the deposited data

Results flagged for a closer look

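A pA assigned both to Ccnt1, as upstream antisense RNA, and to a second gene was in no comparison. It had 9, 11, 24, 16, 14 and 34 reads at 1w to 6w, 108 in all, above the 3 counts that a count of 0 allows. It lies inside the annotated antisense gene 9330020H09Rik, and its reads cannot be told apart between these sources.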

How the results depend on the processing

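Each library is a week, so leaving out a library also leaves out an age. With 1 library left out, members called higher in expression numbered 1 to 10 and lower 0 to 12. Of all genes, 3.89% to 36.5% were then higher and 0.124% to 34.1% lower. Members with a lower Dis-pA ratio numbered 4 to 7 (24% to 41.7% of all genes) and with a higher CDS-pA ratio 1 to 4 (10.3% to 29.7%). Those with higher uaRNA numbered 0 to 5 (0% to 85.3%). The mitotic median ran from −0.84 to −0.45 and the meiotic one from 0.18 to 0.64. The cause was not tested, beyond there being fewer libraries. On the read totals of the study 3 members were higher and 22 lower in expression, 1 had higher uaRNA, the medians were −2.01 (mitotic) and −0.85 (meiotic), and 8 members tested changed sign, as that scaling shifts all genes down: Ccni (−0.0175) and Cdk7 (−1.13), which have a call in 1 of the fits, and Ccnd3, Ccne2, Ccnl1, Cdk1, Cdk10 and Cdk16, which have none in either. DESeq2 called 11 higher (3310 of all 11097 genes), and DESeq2's size factors in edgeR left 4 lower (2097 of all 11269 genes). For 3'UTR-APA a minimum of 50 reads left 3 members lower (969 of all 2499 genes), as fewer were tested. With the most distal pA that holds at least 5% of the reads set against all others, 1 member had a higher ratio, Cdk14 (log2 change 5.40), because its Dis-pA holds 4.64% of its reads and the Prx-pA then counts as the most distal. Without the filter 4 members had higher uaRNA (827 of all 5007 genes). On the study's read totals 332 of all 1063 genes had higher uaRNA. With Ccne1, Ccne2 and Cdk2 moved, the medians were −0.42 and 2.76. Over the 70 log2 changes of members, 551 of the other fits left the call as it was (38 of them, without a call, with another sign), 82 lost it and 41 gained 1. In 3 more the sign changed with a call in at least 1 of the 2 fits. Only Cdk14, under the changed definition of the most distal pA, was called in both directions. No paired analysis was possible because each library is of a different week and the labels link no early library with any late library. Low reads limit Ccnb3, Ccnd2, Ccne2, Cdk18 and most uaRNA.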
